A study of Mus musculus with 9 samples.

Results

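Treatment with PD-1 alone was compared with control in RNA sequencing libraries that the labels assign to 4T1, a mammary carcinoma line of the mouse. The comparison took 6 of the 9 libraries of the study, 3 labelled as control and 3 as PD-1, and the genes that reached 1 FPKM (a fragment count scaled by transcript length and library size) in 3 or more of these 6, which were 13530 of the 52550 genes in the table. Control libraries carry no other treatment in their labels, and the remaining 3 libraries received LY500307, an estrogen receptor beta agonist, together with PD-1. No agent beyond the name PD-1, no dose, no time and no source of the cells (culture or tumour) is given, and the treatment label of PD-1 2 and PD-1 3 carries the numbers 2 and 3 inside the treatment's own name, so these libraries were grouped by title. Nothing in the labels says that replicates came from different cultures or animals, so each p-value measures only how far these libraries differ, which may be technical variation.

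PD-1 is an inhibitory receptor of activated T cells, and antibodies that block it are used to release T cells against tumours. Interferon gamma and the cytotoxic proteins of T and natural killer cells, granzymes and perforin, are the products usually followed after such blockade, and the guanylate-binding proteins and immunity-related GTPases are among the genes that interferon gamma induces most. 4T1 is a transplantable line that is grown in culture or as a mammary tumour in BALB/c mice, where the tumours fill with myeloid cells.

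Epithelial markers were abundant in each of the 6 libraries, with Krt18, a keratin of simple epithelia, at 621 to 1094 FPKM and Epcam at 132 to 273 FPKM, while the claudin Cldn7 lay at only 0.696 to 4.66 FPKM. RNA of other cell types was present too. Markers of macrophages summed to 272 to 955 FPKM, those of neutrophils to 91.4 to 663 FPKM and those of fibroblasts to 125 to 365 FPKM, and 3 of the 4 T cell markers passed the filter, whereas the B cell marker Ms4a1 was at or near 0. The neutrophil marker Ly6g, part of the neutrophil sum, lay at only 0 to 0.490 FPKM. Col1a1 made up most of the fibroblast sum, in which Pdgfra lay at 4.20 to 7.88 FPKM and Dcn at 3.79 to 14.4 FPKM. Lyz2 made up most of the macrophage sum. In such mixed RNA, fewer cells of a type and less RNA per cell cannot be told apart. Steps in the low values point to libraries of similar depth, with a ratio of 1.056 between the deepest and the shallowest of the 9.

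The control libraries differed more among themselves than the PD-1 libraries did. Pearson's r of log2(FPKM + 1) across the 13530 genes was 0.948 to 0.961 between control libraries, 0.964 to 0.972 between PD-1 libraries and 0.959 to 0.972 between a control and a PD-1 library. Between 4.26% and 5.79% of genes differed more than 2-fold (on FPKM + 1) in a pair of control libraries, and between 2.75% and 4.57% did so in a pair of 1 control and 1 PD-1 library. The first principal component (29.8% of the variance) placed control 1 at -28.5 and control 3 at 32.5, with the PD-1 libraries between -3.01 and 7.44. The gene that led it toward control 3 was Ltf, described with the spread within groups, followed by genes of mast cell proteases, for example the tryptase Tpsab1 at 1.54, 24.5 and 131 FPKM in control 1 to 3 and at 48.2, 37.4 and 19.3 FPKM in PD-1 1 to 3, and the chymase Mcpt4 at 0.302, 11.3 and 64.1 FPKM against 24.4, 22.5 and 11.8 FPKM. Bone sialoprotein (Ibsp) led it toward control 1, at 75.5, 3.56 and 1.68 FPKM in control and 26.5, 9.72 and 6.999 FPKM in PD-1. 

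**Figure D1:**
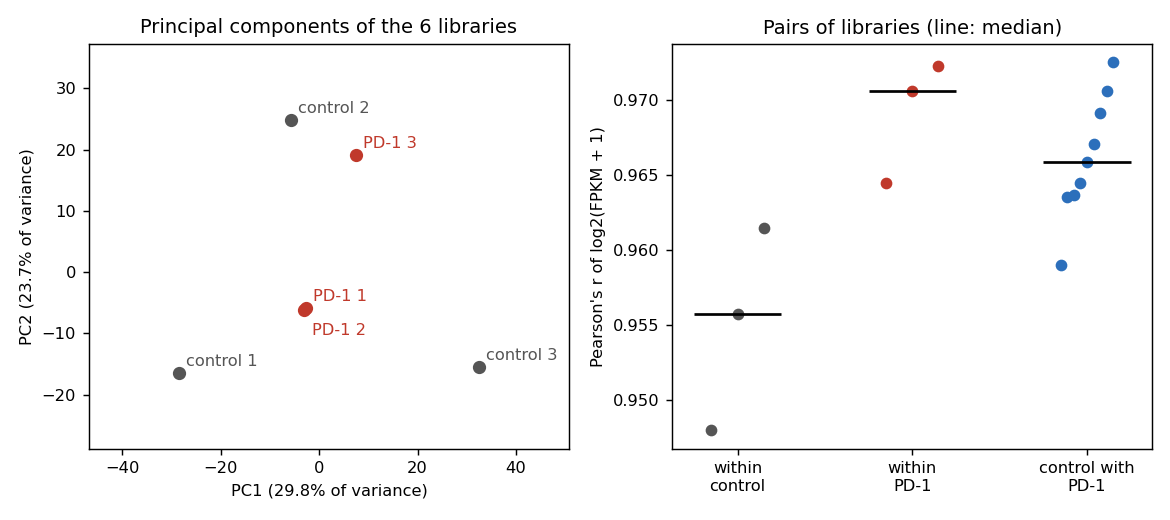
Left, principal component scores of the 6 libraries (PC1 and PC2, from log2(FPKM + 1) of the genes tested); right, Pearson's r for each pair of libraries, with the median of each kind of pair as a line. The control libraries spread from -28.5 to 32.5 on PC1, around the PD-1 libraries, and pairs of control libraries reach the lowest r (0.948).

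Across the transcriptome, no gene was called in PD-1 against control (0 of 13530, 0%, at a Benjamini-Hochberg adjusted p under 0.05 in limma), the lowest adjusted value being 0.224. An unadjusted p under 0.05 was reached by 327 genes (2.42%), of which 160 were higher in PD-1 (1.18%) and 167 lower (1.23%). The 3 PD-1 values lay outside the range of the 3 control values for 904 genes (6.68%), above it for 433 (3.2%) and below it for 471 (3.48%). Log2 fold changes centred on -0.01 with an SD of 0.22, the middle of their distribution ran from -0.11 to 0.09 (quartiles), and 69 genes passed a 2-fold difference. The median standard error of a single log2 fold change was 0.17. Genes averaging at least 50 FPKM were higher in PD-1 more often than lower (607 of 1015, median log2 fold change 0.03), against 986 of 2082 genes below 2 FPKM, with a median of -0.01.

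Among annotated classes, protein-coding genes (5467 of 11372 higher, median -0.01) and processed pseudogenes (351 of 684 higher, median 0.01) stood where all genes stood. Small nucleolar RNAs, which guide modification of ribosomal RNA, had a median log2 fold change of 0.16, with 67 of 112 higher, and 5 with PD-1 values above all control values (4.46%, near the 3.2% of all genes) against 0 below. Snora41 stood at 1.89, 3.64 and 3.17 FPKM in control and at 7.86, 5.95 and 5.98 FPKM in PD-1, so that every PD-1 library was above every control library. Its log2 fold change was 0.98 (SE 0.19). The class median moved to 0.04 without control replicate 3 and to 0.27 when control replicate 1 was left out. By chromosome, the most uneven counts of genes with non-overlapping groups, picked after the values were seen, were 5 higher and 28 lower of 519 tested on chromosome 15 (0.963% and 5.39%) and 14 and 37 of 692 on chromosome 17 (2.02% and 5.35%). In the other direction they were 25 higher and 8 lower of 613 on chromosome 10 (4.08% and 1.31%) and 24 and 7 of 547 on chromosome 13 (4.39% and 1.28%). These shares stand against 3.2% higher and 3.48% lower of all genes.

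Single genes were named by rank of unadjusted p among annotated genes with a mean of at least 1 FPKM whose groups did not overlap, 12 in each direction. Sept8, which encodes a septin of the membrane cytoskeleton (chromosome 11, 53519257 to 53549565 on GRCm38), stood at 6.07, 6.19 and 7.57 FPKM in control and at 19.7, 22.1 and 19.3 FPKM in PD-1. Each PD-1 library held more than any control library, and the libraries of each group lay close together. The difference on the log2 scale was 1.49 (SE 0.20, 95% interval 1.03 to 1.95, Benjamini-Hochberg adjusted p = 0.224 in limma). Rps6ka3, which encodes RSK2, a kinase that ERK activates (chromosome X, 159210307 to 159368244), was at 0.952, 1.47 and 1.70 FPKM in control and at 7.76, 5.61 and 5.21 FPKM in PD-1. The lowest PD-1 library was again above the highest control library, and the difference was 1.59 on the log2 scale (SE 0.22, 95% interval 1.10 to 2.09, Benjamini-Hochberg adjusted p = 0.224 in limma).

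Acadsb, an acyl-CoA dehydrogenase of branched-chain amino acid breakdown, stood at 2.77, 2.82 and 4.12 FPKM in control and at 7.54, 6.33 and 8.33 FPKM in PD-1. Fpgs, which adds glutamates to folates and so keeps them in the cell, stood at 3.89, 4.26 and 3.49 FPKM against 6.02, 5.87 and 7.21 FPKM. Agpat1, an acyltransferase of phosphatidic acid synthesis, stood at 13.8, 16.04 and 16.6 FPKM against 31.1, 26.0 and 30.2 FPKM. All 3 had log2 fold changes below those of Sept8 and Rps6ka3, at 1.00 (SE 0.18) for Acadsb, 0.59 (SE 0.12) for Fpgs and 0.87 (SE 0.19) for Agpat1. Zbp1, an interferon-induced sensor of Z-form nucleic acids that can start necroptosis, stood at 21.1, 28.6 and 26.5 FPKM in control and at 38.7, 37.0 and 34.8 FPKM in PD-1, a log2 fold change of 0.53 (SE 0.12). Its narrow PD-1 range lay wholly above the control range.

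The remaining genes on the higher side were mostly of low level. Rpgrip1, a scaffold protein known from the photoreceptor cilium, was nearly absent in control, at 0.00983, 0.00865 and 0.0242 FPKM. It stood at 2.23, 2.41 and 2.30 FPKM in PD-1, and so passed the filter through the PD-1 libraries alone. Its log2 fold change was 1.71 (SE 0.39) on the log2(FPKM + 1) scale. Manf, a secreted protein of the endoplasmic reticulum stress response, stood at 43.0, 46.6 and 42.4 FPKM against 60.8, 65.8 and 51.0 FPKM. Cacybp, a partner of calcyclin in ubiquitination, stood at 32.8, 38.8 and 33.7 FPKM against 45.0, 42.4 and 50.05 FPKM. These were the most abundant of the 12 genes by mean, with log2 fold changes of 0.41 (SE 0.11) for Manf and 0.38 (SE 0.10) for Cacybp. Specc1l, a cytoskeletal linker, Lysmd2, a LysM domain protein, and the long noncoding RNA Dmrta2os had log2 fold changes of 0.61, 0.62 and 0.76.

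On the lower side, Fip1l1, a subunit of the mRNA cleavage and polyadenylation machinery (chromosome 5, 74535449 to 74598800), stood at 7.60, 8.45 and 6.70 FPKM in control and at 3.31, 4.00 and 3.76 FPKM in PD-1. The groups were far apart relative to their spread, and differed by -0.87 on the log2 scale (SE 0.12, 95% interval -1.14 to -0.60, Benjamini-Hochberg adjusted p = 0.224 in limma). Phospho1, a phosphatase of bone mineralization, stood at 14.5, 17.8 and 19.96 FPKM against 7.92, 6.56 and 7.15 FPKM, a log2 fold change of -1.16 (SE 0.18). Gper1, the G protein-coupled estrogen receptor, stood at 2.20, 1.64 and 1.55 FPKM against 0.480, 0.675 and 0.185 FPKM, a log2 fold change of -0.96 (SE 0.19). No PD-1 library reached the lowest control library for either gene. Gper1 passed the filter through the control libraries alone. Paip2, which restrains translation by binding the poly(A)-binding protein, stood at 38.6, 32.6 and 34.0 FPKM against 24.2, 25.7 and 20.5 FPKM. Ttll7, which adds glutamates to tubulin, stood at 2.71, 2.86 and 4.12 FPKM against 0.806, 0.948 and 1.60 FPKM. Both had PD-1 libraries below every control library, with log2 fold changes of -0.56 (SE 0.11) for Paip2 and -1.0 (SE 0.21) for Ttll7.

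Fbxo32, the atrogin-1 ubiquitin ligase of muscle atrophy, stood at 3.07, 2.76 and 4.33 FPKM in control and at 1.84, 1.59 and 1.34 FPKM in PD-1. Tnfrsf21, death receptor 6, stood at 10.9, 11.5 and 17.2 FPKM against 5.88, 9.47 and 5.80 FPKM. Yju2, a splicing factor, stood at 15.6, 12.1 and 10.02 FPKM against 7.84, 8.38 and 8.63 FPKM. For Tnfrsf21 the highest PD-1 library came close to the lowest control library, as it did for Yju2. Log2 fold changes were -0.75 (SE 0.18) for Fbxo32, -0.82 (SE 0.21) for Tnfrsf21 and -0.53 (SE 0.15) for Yju2. The casein kinase gene Csnk1g1, the coenzyme A synthesis gene Ppcdc, the acetyltransferase gene Nat8f1 and the antisense RNA Arhgap27os1 lay between -0.53 and -0.58. Nat8f1 passed the filter through the control libraries alone. None of the 24 genes passed over all genes tested. Each of them stayed uncalled in every alternative in which it was fitted (277 gene and setting combinations). Each also kept its direction, which says little. Leaving out a library cannot turn the direction of groups that do not overlap, and the rule that named the genes asked for this.

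**Figure D2:**
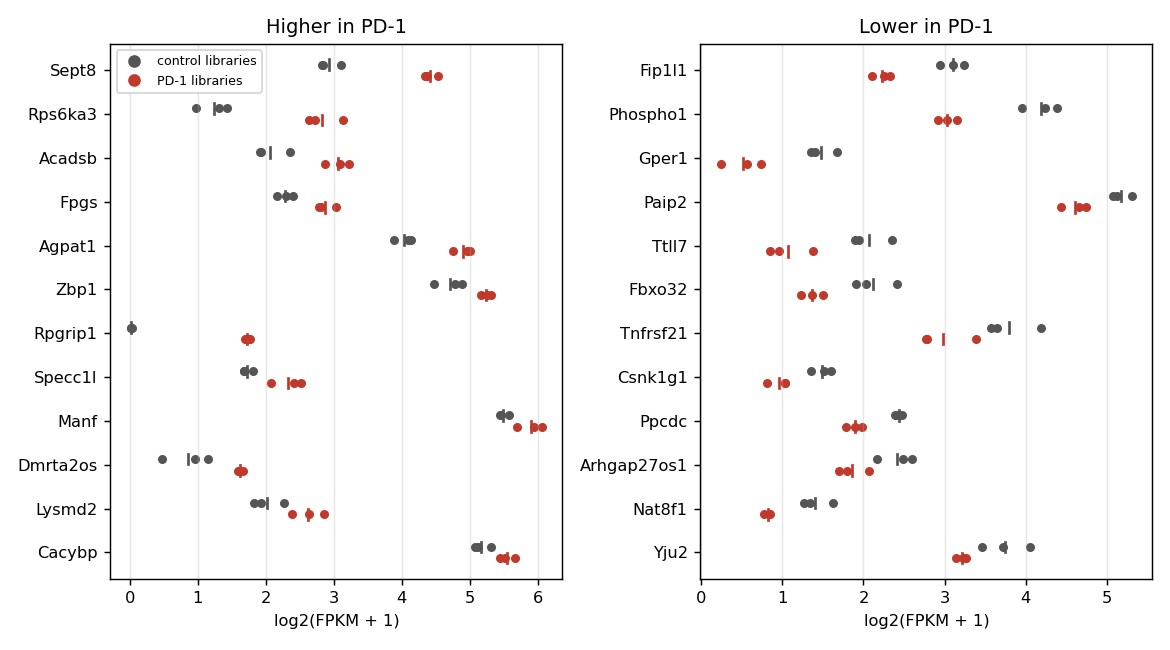
log2(FPKM + 1) in each library for the 12 genes named on the higher side (left) and the 12 on the lower side (right), with control libraries in grey, PD-1 libraries in red and group means as short lines. The groups do not overlap for any of the 24 genes, since the rule that named them asked for this.

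The libraries that received LY500307 with PD-1 are set beside these values, and share the same controls. Sept8 averaged 15.7 ± 4.62 FPKM (SD, n = 3) there and Phospho1 6.68 ± 1.65 FPKM, near their PD-1 values. Rps6ka3 averaged 1.81 ± 0.702 FPKM and Fip1l1 7.11 ± 0.411 FPKM, near their control values. Acadsb averaged 4.05 ± 0.851 FPKM, between the groups. Rpgrip1 stood at 2.29, 0.0332 and 2.22 FPKM in LY500307+PD-1 1 to 3, so libraries of that group were split between its PD-1 and control levels.

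Some of these genes overlap others, and whether strand was used in counting is not given. Rpgrip1 runs into Supt16 on the opposite strand, which stood at 15.6 to 19.5 FPKM in control and 17.2 to 18.3 FPKM in PD-1. Phospho1 is overlapped on the opposite strand by Abi3, an adaptor of actin regulation that was lower in PD-1 as well, at 28.2, 22.5 and 24.4 FPKM against 20.1, 15.9 and 20.8 FPKM. Gper1 lies within a gene on the opposite strand at 10.1 to 14.1 FPKM over the 6 libraries. Other partners share the strand, so that stranded counting would not separate them. Phospho1 lies within Zfp652, which stood at 4.70, 5.79 and 5.57 FPKM in control and 4.74, 3.88 and 4.84 FPKM in PD-1. Rbm15b lies within Manf, at 8.53 to 12.2 FPKM in control and 8.47 to 11.1 FPKM in PD-1. Reads of such partners cannot be told apart here, and their part in these values was not tested.

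Guanylate-binding proteins (GBPs) and immunity-related GTPases (IRGs), interferon-induced GTPases that attack the vacuoles of intracellular microbes, were the family, among those with at least 5 genes tested, in which the largest share of genes was free of overlap. Of the 18 listed genes, 17 were tested, and all 17 had a higher mean in PD-1. The list was drawn by symbol and leaves out Ifi47, an immunity-related GTPase under another name, which was lower in mean and overlapped, at 50.1, 36.7 and 40.4 FPKM in control and 45.6, 18.3 and 52.3 FPKM in PD-1. With it, 17 of 18 were higher and the median was again 0.34. The log2 fold changes of the 17 had a median of 0.34, against -0.01 for all genes. For 12 of the 17 every PD-1 library was above every control library, where 3.2% of all genes were, and 5 had an unadjusted p under 0.05, where 1.18% of all genes were that low and higher. The 17 are not independent observations: 5 lie together on chromosome 3, 6 on chromosome 5 and 5 on chromosome 11, and near-identical copies such as Tgtp1 and Tgtp2, or members of the GBP clusters, can share reads. The median stayed between 0.26 (without control replicate 3) and 0.37 (without PD-1 replicate 1).

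The window from 250 bases before to 50 bases after the transcription start is shown for 5 of these genes, because the windows hold a short motif. Of the 17 genes tested, 10 had a window in the RefSeq table (build GRCm38.p6). GAAANNGAAA, the core of the interferon-stimulated response element, searched on both strands with overlapping matches counted, was found in all 10, against 3.86% of the 9265 tested genes with a window and 3.99% of all 27025 genes in the table. TTCNNNGAA, the core bound by STAT dimers and a motif that reads the same on both strands, was found in 6 of the 10, against 8.13% of tested genes. A match describes the letters and shows neither binding nor a cause. Capitals mark GAAANNGAAA on either strand, which begins 59 bases before the start in Gbp2 (chr3:142620413-142620712, plus strand), 45 in Gbp3 (chr3:142559794-142560093, plus), 53 in Gbp7 (chr3:142530086-142530385, plus), 30 in Irgm1 (chr11:48871371-48871670, minus) and 77 in Tgtp1 (chr11:48992197-48992496, minus).
Gbp2: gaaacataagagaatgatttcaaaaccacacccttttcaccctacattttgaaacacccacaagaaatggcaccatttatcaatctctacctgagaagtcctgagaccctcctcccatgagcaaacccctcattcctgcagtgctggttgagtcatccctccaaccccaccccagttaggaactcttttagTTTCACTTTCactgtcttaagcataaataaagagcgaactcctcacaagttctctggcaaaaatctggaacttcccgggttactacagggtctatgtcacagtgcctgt
Gbp3: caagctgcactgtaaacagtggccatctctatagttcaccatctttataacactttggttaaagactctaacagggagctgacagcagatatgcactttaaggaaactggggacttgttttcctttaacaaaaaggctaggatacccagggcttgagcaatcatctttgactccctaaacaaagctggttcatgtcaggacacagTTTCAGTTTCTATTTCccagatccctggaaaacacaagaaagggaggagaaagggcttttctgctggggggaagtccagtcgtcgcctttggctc
Gbp7: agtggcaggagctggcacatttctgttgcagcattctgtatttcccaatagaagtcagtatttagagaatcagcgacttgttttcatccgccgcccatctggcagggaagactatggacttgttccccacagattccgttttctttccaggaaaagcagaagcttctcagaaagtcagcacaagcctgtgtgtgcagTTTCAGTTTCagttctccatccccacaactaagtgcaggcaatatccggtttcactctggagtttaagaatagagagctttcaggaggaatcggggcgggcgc
Irgm1: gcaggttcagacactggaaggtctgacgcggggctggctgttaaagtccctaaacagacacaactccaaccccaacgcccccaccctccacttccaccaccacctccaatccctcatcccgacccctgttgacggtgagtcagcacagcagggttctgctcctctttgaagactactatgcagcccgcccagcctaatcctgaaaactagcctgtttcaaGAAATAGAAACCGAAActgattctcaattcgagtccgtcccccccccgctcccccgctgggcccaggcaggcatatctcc
Tgtp1: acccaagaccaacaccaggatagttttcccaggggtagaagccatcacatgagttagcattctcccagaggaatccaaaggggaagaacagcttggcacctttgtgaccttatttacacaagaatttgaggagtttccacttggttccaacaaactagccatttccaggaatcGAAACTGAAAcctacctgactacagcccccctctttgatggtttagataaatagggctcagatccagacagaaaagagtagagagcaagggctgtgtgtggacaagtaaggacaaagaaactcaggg

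Gbp2, the most abundant guanylate-binding protein here, stood at 101, 140.3 and 137 FPKM in control and at 143, 161 and 175 FPKM in PD-1. Gbp7 stood at 18.7, 15.9 and 15.99 FPKM against 20.3, 24.0 and 20.1 FPKM, and Gbp4 at 24.3, 29.2 and 23.6 FPKM against 34.5, 33.0 and 41.6 FPKM. In all 3 genes the lowest PD-1 library exceeded the highest control library, for Gbp2 only narrowly. Log2 fold changes were 0.35 (SE 0.16) for Gbp2, 0.33 (SE 0.11) for Gbp7 and 0.48 (SE 0.21) for Gbp4. Among the IRG GTPases, Tgtp1 stood at 71.2, 64.7 and 55.0 FPKM against 80.4, 75.4 and 87.2 FPKM, and Igtp at 136, 133 and 115 FPKM against 151, 154 and 146 FPKM. Neither gene overlapped between groups, with log2 fold changes of 0.35 (SE 0.12) for Tgtp1 and 0.23 (SE 0.10) for Igtp. Irgm1, a regulator of the other IRG GTPases, overlapped, at 40.9, 39.97 and 30.7 FPKM against 40.9, 47.9 and 41.6 FPKM. Where LY500307 was given with PD-1, compared with the same controls, Gbp2 averaged 161 ± 24.2 FPKM and Igtp 166 ± 10.3 FPKM, and Tgtp1 averaged 64.3 ± 4.60 FPKM.

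Granzymes and perforin, the killing proteins of cytotoxic granules, had the highest median of all families with at least 5 genes tested. Of the 11 listed genes, 8 were tested, all 8 had a higher mean in PD-1, the median log2 fold change was 1.12, and for 3 every PD-1 library was above every control library (37.5%, against 3.2% of all genes). Summed over the 8 tested, they stood at 145, 337 and 179 FPKM in control and at 572, 316 and 698 FPKM in PD-1. In this sum the groups overlapped, with PD-1 2 below control 2. The 6 genes Gzmb to Gzmg lie together on chromosome 14. Windows of Gzmc to Gzmg around the transcription start were 87.4% to 94% identical in pairwise alignment, and those of Gzmb and the same 5 genes 64.8% to 76.3%. Gzmd (chr14:56132544-56132843, minus strand) and Gzme (chr14:56120576-56120875, minus) were the closest pair, with 281 of 299 aligned positions identical. They are shown as the closest pair. Most of each window lies before the transcript and gives no reads, and the transcripts themselves were not aligned. Whether reads are split between these genes was not tested, so their separate values are uncertain. Capitals mark a base aligned to another base or to a gap in the partner.
Gzmd: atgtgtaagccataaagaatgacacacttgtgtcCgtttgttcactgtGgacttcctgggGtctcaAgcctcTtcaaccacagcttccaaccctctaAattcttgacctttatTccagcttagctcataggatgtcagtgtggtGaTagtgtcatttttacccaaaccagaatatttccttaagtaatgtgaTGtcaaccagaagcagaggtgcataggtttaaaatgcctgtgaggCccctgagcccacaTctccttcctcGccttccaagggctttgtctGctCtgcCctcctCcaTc
Gzme: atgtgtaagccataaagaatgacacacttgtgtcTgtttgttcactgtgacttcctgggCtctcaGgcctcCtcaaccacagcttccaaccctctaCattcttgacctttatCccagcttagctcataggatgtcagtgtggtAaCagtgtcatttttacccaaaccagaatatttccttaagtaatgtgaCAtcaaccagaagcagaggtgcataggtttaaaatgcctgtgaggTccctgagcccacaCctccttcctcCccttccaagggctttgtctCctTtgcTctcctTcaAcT

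Gzmd stood at 33.2, 70.7 and 25.8 FPKM in control and at 132, 62.9 and 139 FPKM in PD-1. Gzme stood at 20.9, 24.9 and 10.5 FPKM against 52.2, 26.1 and 46.4 FPKM, and Gzmc at 27.4, 56.5 and 51.6 FPKM against 81.8, 67.2 and 102 FPKM. PD-1 2 was the lowest PD-1 library in each, below control 2 for Gzmd and just above the highest control library for Gzme. Log2 fold changes were 1.39 (SE 0.50) for Gzmd, 1.13 (SE 0.33) for Gzme and 0.92 (SE 0.35) for Gzmc. Gzmf and Gzmg, which are close copies of these, had 1.62 (SE 0.71) and 1.54 (SE 0.65) and overlapping groups. Prf1, which encodes the pore-forming protein perforin and has no near copy among these genes, stood at 4.33, 6.86 and 6.25 FPKM against 12.96, 11 and 17.1 FPKM, a log2 fold change of 1.11 (SE 0.34) without overlap. Gzmb, the granzyme most used as a marker of killer cells, stood at 5.95, 23.4 and 27.9 FPKM against 26.6, 31.5 and 42.5 FPKM, and control 1 alone was far below the rest. The family median was 0.98 without PD-1 replicate 3 and 1.33 without PD-1 replicate 2. Where LY500307 was given with PD-1, set against the same controls, Gzmd averaged 44.0 ± 23.4 FPKM, Gzme 19.4 ± 2.14 FPKM and Prf1 7.52 ± 3.74 FPKM.

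Markers of T cells are given beside the granzymes. Their summed level was 6.65, 3.20 and 12.97 FPKM in control and 8.25, 7.79 and 7.20 FPKM in PD-1, with the PD-1 libraries inside the control range, and 2 of the 4 markers had a higher mean in PD-1. Cd8a, of cytotoxic T cells, stood at 3.19, 1.63 and 3.70 FPKM against 3.79, 3.10 and 3.94 FPKM, and the pan-leukocyte gene Ptprc at 2.61, 1.19 and 5.995 FPKM against 3.55, 3.67 and 3.32 FPKM. Neutrophil markers summed to 171, 245 and 239 FPKM in control and to 451, 91.4 and 663 FPKM in PD-1, with PD-1 2 below every control library. S100a8 and S100a9 carried this sum. Ly6g, also in it, did not pass the filter and was highest in PD-1 2. It stood at 0.315, 0 and 0 FPKM in control and at 0.129, 0.490 and 0.263 FPKM in PD-1. PD-1 2 was also the lowest PD-1 library for Gzmc, Gzmd, Gzme, Gzmf, Gzmg and Prf1, though not for Gzmb. In none of these genes was it below every control library. The part of these cell types in the granzyme values was not tested.

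**Figure D3:**
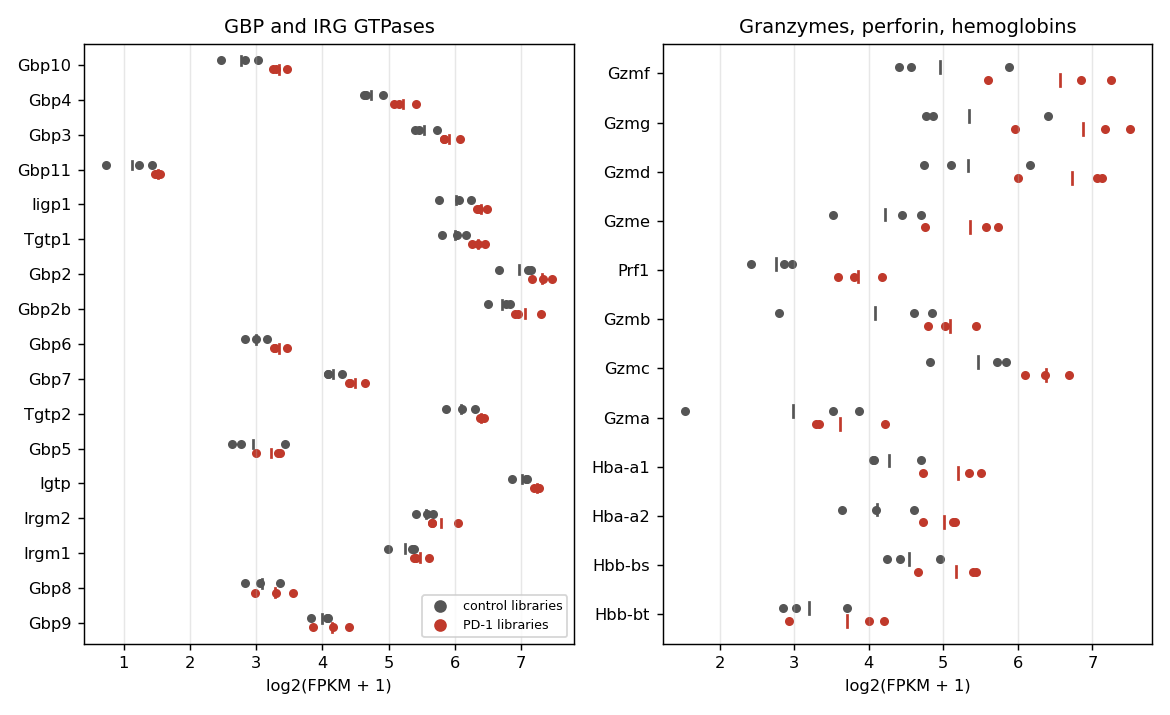
log2(FPKM + 1) in each library for the guanylate-binding proteins and IRG GTPases (left) and for the granzymes, perforin and hemoglobins tested (right), with control in grey, PD-1 in red and group means as short lines. PD-1 libraries lie above all control libraries for 12 of the 17 GTPases, whereas 3 of the 8 granzyme and perforin genes are free of overlap.

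Other lymphocyte genes were less uniform. Killer lectin-like receptors of natural killer cells were higher for 7 of 7 genes tested (of 30 in the table), with a median of 0.16 that lay on the other side of 0 without control replicate 2 (-0.05) and reached 0.38 without control replicate 3. Klrd1, the CD94 chain, stood at 0.944, 1.24 and 3.82 FPKM in control and at 3.40, 2.79 and 2.00 FPKM in PD-1. T cell receptor genes (7 of 254 tested, median 0.19) turned to -0.17 without control replicate 2. Cd8b1, the beta chain of the CD8 coreceptor, stood at 3.13, 1.76 and 3.58 FPKM against 5.04, 5.43 and 3.60 FPKM, and Cd3g, a chain of the T cell receptor complex, at 2.52, 1.64 and 2.80 FPKM against 3.77, 3.49 and 3.33 FPKM. Both were just free of overlap, with log2 fold changes of 0.59 (SE 0.27) and 0.47 (SE 0.24). Of 54 CD antigens tested, 2 lay wholly above control (3.7%, near the 3.2% of all genes). Cd3d, another chain of the complex, overlapped and was lower in mean, at 2.22, 0.821 and 4.37 FPKM against 2.07, 1.48 and 2.19 FPKM. Cd4, which did not pass the filter, was also lower in mean, at 0.457, 0.414 and 2.96 FPKM against 0.898, 1.69 and 0.108 FPKM. Foxp3, the factor that defines regulatory T cells, stood at 0.0766, 0.194 and 2.36 FPKM against 1.90, 1.96 and 1.73 FPKM. Control 3 held the most of all 6 libraries and the other two control libraries almost none.

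Interferon-stimulated genes of the IFIT, OAS, MX and IFI groups, which block viral RNA and its translation, were higher for 29 of the 38 tested (of 51 in the table), with a median of 0.19, and 4 of them lay wholly above control (10.5%, against 3.2% of all genes). Leaving out control replicate 2 gave a median of 0.08 and leaving out control replicate 3 gave 0.38. Ifit3, an RNA-binding antiviral protein, stood at 20.5, 27.6 and 35.4 FPKM in control and at 38.2, 42.6 and 42.7 FPKM in PD-1, a log2 fold change of 0.58 (SE 0.18) without overlap. Its near copy Ifit3b, with which it may share reads, stood at 8.01, 9.67 and 13.4 FPKM against 12.4, 17.2 and 18.6 FPKM, and overlapped. Ifi47, the immunity-related GTPase described above, falls in this group by its symbol and had the opposite sign (log2 fold change -0.24, SE 0.33), with PD-1 2 far below the other PD-1 libraries. Of 30 genes of this group with a promoter window, 15 held GAAANNGAAA. The transcription factors of the pathway, interferon regulatory factors and STATs, had a median of -0.01 (6 of 17 higher), with Irf1 at 39.8, 29.95 and 34.2 FPKM against 26.0, 32.6 and 26.0 FPKM.

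Genes of the major histocompatibility complex, which present peptides to T cells, were higher for 24 of 26 tested. The groups were free of overlap for 0 of the 26, against 6.68% of all genes. The median of the 26 was 0.12, and 0.01 without PD-1 replicate 2. H2-D1, a class I heavy chain, stood at 1134, 1339 and 1449.9 FPKM in control and at 1307, 1443 and 1223 FPKM in PD-1, and H2-Eb1, a class II beta chain, at 518, 427 and 949 FPKM against 730.4, 822 and 458 FPKM. Control 3 held the most H2-Eb1, and PD-1 3 of the PD-1 libraries the least. Chemokine ligands were higher for 17 of 24 (median 0.20, between 0.10 without control replicate 2 and 0.51 without control replicate 3). Cxcl10, an interferon-induced attractant of T cells, stood at 9.03, 9.09 and 11.3 FPKM against 12.6, 16.4 and 11.1 FPKM, a log2 fold change of 0.40 (SE 0.16). Chemokine receptors were divided evenly, 5 of 10 higher. Interleukins and their receptors had a median of -0.01 (19 of 40 higher), with Il1b at 26.5, 22.4 and 35.3 FPKM against 45.5, 13.2 and 51.7 FPKM.

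Hemoglobin genes had 4 of 11 members tested, all with a higher mean in PD-1. Hba-a1 stood at 25.1, 15.6 and 15.8 FPKM in control and at 44.5, 25.5 and 39.7 FPKM in PD-1, and its near-identical copy Hba-a2 at 23.4, 16.03 and 11.5 FPKM against 34.7, 25.5 and 34.1 FPKM. PD-1 2 was only just above control 1 in both, with log2 fold changes of 0.92 (SE 0.32) and 0.89 (SE 0.31), and the copies may share reads. The erythroid enzyme gene Alas2 stayed between 0.174 and 0.389 FPKM. Stefins, inhibitors of cysteine proteases that neutrophils produce, were higher for 5 of 6 tested (median 0.38, and 0.07 without PD-1 replicate 3), with Stfa2l1 at 7.18, 10.1 and 14.3 FPKM against 14.2, 7.25 and 33.9 FPKM. S100a8, the neutrophil calcium-binding protein, had the same low value in PD-1 2, at 57.7, 68.9 and 60.1 FPKM against 139.7, 25.8 and 198 FPKM. The part of erythroid cells and neutrophils in these values was not tested.

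Families of protein synthesis and turnover had medians slightly above 0. Cytosolic ribosomal proteins were higher for 77 of 87 tested, with a median of 0.06 that was 0.00 without PD-1 replicate 3 and 0.16 without PD-1 replicate 2, and 1 lay wholly above control and 2 wholly below (1.15% and 2.3%, under the shares of all genes). Proteasome subunits were higher for 34 of 48 (median 0.06), with 5 wholly above control (10.4%, against 3.2% of all genes) and 2 wholly below (4.17%, against 3.48%), including Psma1, a subunit of the core particle, at 40.3, 39.5 and 41.7 FPKM against 44.4, 45.0 and 46.4 FPKM. The difference in Psma1 was small but the libraries were tight, with a log2 fold change of 0.16 (SE 0.08). Translation initiation factors had a median of 0.02, with Eif1a, which helps the ribosome scan for a start codon, at 30.9, 32.8 and 31.6 FPKM against 39.5, 34.0 and 43.4 FPKM. Mitochondrial ribosomal proteins (49 of 80 higher, median 0.05), cytochrome c oxidase and ATP synthase genes (28 of 40, median 0.06) and respiratory complex I genes (26 of 49, median 0.01) lay close to all genes.

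Chaperones had a median of 0.06 (39 of 59 higher, 5 wholly above and 5 wholly below control, 8.47% each way against 3.2% and 3.48% of all genes). Hsp90aa1, the stress-inducible form of HSP90, stood at 114, 121 and 98.4 FPKM in control and at 191, 180.5 and 125 FPKM in PD-1, a log2 fold change of 0.55 (SE 0.16) without overlap. The constitutive form, Hsp90ab1, stood at 975, 1005 and 789 FPKM against 916, 896 and 831 FPKM, and overlapped. Hsph1, a cochaperone of HSP70, stood at 6.31, 12.1 and 8.42 FPKM against 11.6, 19.0 and 12.99 FPKM, with 1 control library inside the PD-1 range. Dnajc27, a J-domain GTPase, lay lower, at 2.07, 2.06 and 1.97 FPKM against 1.01, 1.29 and 0.991 FPKM, a log2 fold change of -0.54 (SE 0.17).

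Signalling families held the genes named above among members that differed little. Rps6ka3, Sept8 and Tnfrsf21 were named because their groups did not overlap, and the lists were chosen with earlier results known. Shares below that count these genes were therefore partly fixed in advance and say little about the families. In the RSK and S6 kinase family (9 tested, median 0.10), 2 members lay wholly above control (22.2%, against 3.2% of all genes). Besides Rps6ka3 this held, narrowly, for Rps6kb1, an S6 kinase downstream of mTOR. Rps6kb1 stood at 8.03, 7.99 and 7.07 FPKM in control and 8.58, 8.13 and 8.50 FPKM in PD-1, a log2 fold change of 0.11 (SE 0.10). The most abundant member, Rps6ka4, overlapped, at 33.5, 30.5 and 28.2 FPKM against 30.5, 37.1 and 34.2 FPKM. In the septin family Sept8 was the 1 member of 10 tested without overlap (10% wholly above control, against 3.2% of all genes). MAP kinases and their activators were lower for 21 of 30 (median -0.04), with Mapk14, the p38 alpha kinase, at 13.01, 9.39 and 11.6 FPKM against 4.03, 4.98 and 11.03 FPKM. PD-1 3 was inside the control range and the other two PD-1 libraries were far below it. Dual-specificity phosphatases, which switch MAP kinases off, were higher for 12 of 18 (median 0.08), with 0 free of overlap (against 6.68% of all genes). The TNF ligand and receptor superfamily had a median of -0.07, and 2 of 26 lay wholly below control (7.69%, against 3.48% of all genes). Besides Tnfrsf21 this held for the B cell growth factor gene Tnfsf13 (APRIL). Tnfsf13 stood at 5.87, 4.04 and 7.71 FPKM against 2.57, 3.04 and 2.76 FPKM, a log2 fold change of -0.82 (SE 0.28). Among lysosomal cathepsins, Ctsf stood at 3.87, 3.01 and 6.02 FPKM against 2.26, 2.65 and 2.60 FPKM, with no overlap.

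Zinc finger proteins named Zfp, most of them DNA-binding repressors, were lower for 166 of 250 tested (of 415 in the table), with a median of -0.07, and 22 lay wholly below control against 5 wholly above. The share wholly below, 8.8% against 3.48% of all genes, came with small single differences, and the median stayed between -0.08 and -0.03 when any 1 library was left out. Zfp703, a corepressor whose human counterpart is amplified in luminal breast cancer, stood at 31.8, 33.9 and 32.0 FPKM in control and at 24.3, 27.3 and 21.8 FPKM in PD-1, a log2 fold change of -0.40 (SE 0.14). Zfp85 stood at 1.84, 1.56 and 2.15 FPKM against 1.11, 1.07 and 0.814 FPKM, and Zfp317, in the other direction, at 2.58, 3.63 and 4.17 FPKM against 6.75, 5.49 and 5.64 FPKM. Among symbol stems with 10 or more genes tested, which cut the transcriptome by name alone, Zdhhc (palmitoyltransferases) was lower for 16 of 18 with a median of -0.08, Kdm (histone demethylases) had 4 of 17 wholly below control (23.5%, against 3.48% of all genes) with a median of -0.09, and Dennd (activators of RAB GTPases) had the lowest median, -0.14. These stems were picked as extremes of many after their values were seen. Others were as uneven, such as Dnajc with 5 of 23 wholly below control (21.7%). In the other direction, Zcchc had 3 of 10 wholly above (30%, against 3.2% of all genes). The stems with the highest medians were Gbp (0.34), Snora (0.24), Ccl (0.23), Hspa (0.17), Snhg (0.14) and Ifi (0.14).

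Of the keratins, integrins, claudins, collagens and matrix metalloproteinases tested, 0 had groups free of overlap, against 6.68% of all genes. Of 10 cadherins, 2 lay wholly below control (20%, against 3.48% of all genes), and 1 of 16 ADAM and ADAMTS proteases wholly above (6.25%, against 3.2%). The last was Adamts14, which processes procollagen, at 3.69, 4.52 and 3.63 FPKM in control and 6.55, 10.1 and 5.27 FPKM in PD-1, a log2 fold change of 0.71 (SE 0.20). Keratins had a median of -0.05 (4 of 10 higher), integrins 0.02 (12 of 21) and claudins 0.02 (4 of 7). Collagens were lower for 15 of 22 with a median of -0.11 that became 0.08 without PD-1 replicate 1, the library with the lowest Col1a1, at 117 FPKM against 352 and 185 FPKM in the other PD-1 libraries and 233, 263 and 204 FPKM in control. Matrix metalloproteinases varied widely within control, for example Mmp3 at 53.8, 272 and 90.4 FPKM against 127, 62.6 and 178 FPKM. Pcdhgc3, a clustered protocadherin whose exons are shared with its neighbours, stood at 8.90, 9.57 and 4.36 FPKM in control and at 1.73, 4.13 and 3.01 FPKM in PD-1, a log2 fold change of -1.11 (SE 0.34), and control 3 was close to PD-1 2. Cdh5, the cadherin of endothelium, stood at 23.8, 19.4 and 17.7 FPKM against 17.2, 16.3 and 16.1 FPKM, without overlap, while Cdh1, the epithelial cadherin, stood at 55.8, 84.1 and 67.0 FPKM against 65.5, 70.7 and 70.1 FPKM. Summed endothelial markers were 38.0, 30.4 and 33.9 FPKM against 29.5, 27.3 and 32.4 FPKM, and their part in the Cdh5 value was not tested.

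**Figure D4:**
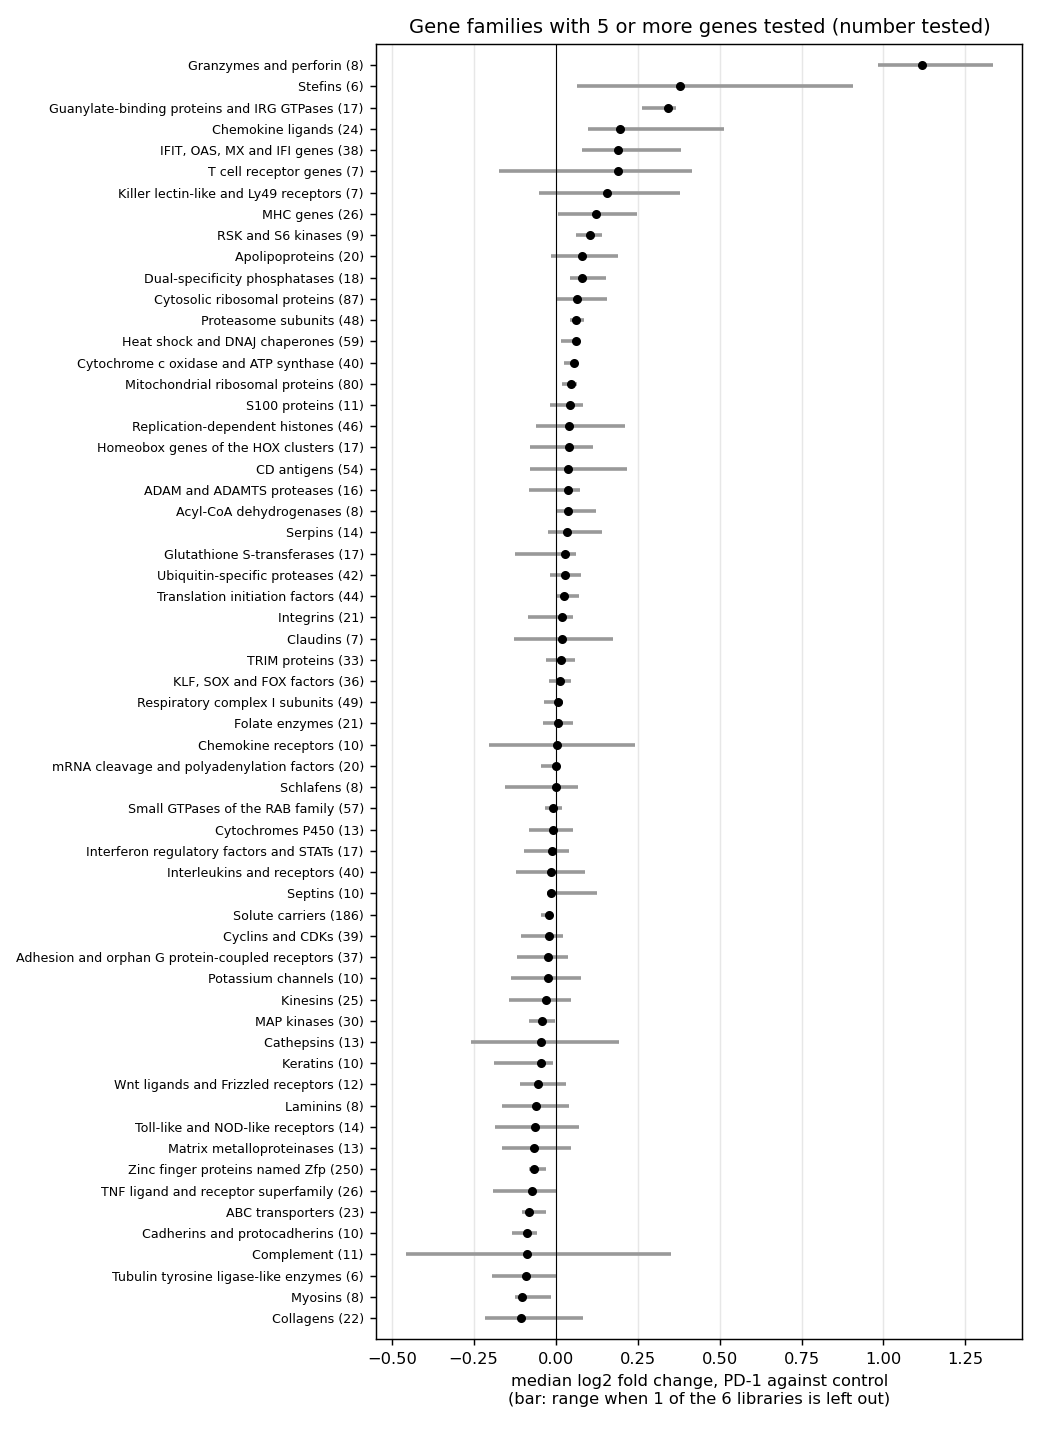
Median log2 fold change (PD-1 against control) of the 60 gene families with at least 5 genes tested, with the number tested in brackets; the bar is the range of the median when 1 of the 6 libraries is left out. The median of granzymes and perforin (1.12) lies far from the others, and 38 of the 60 bars cross 0.

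Of the 60 families with at least 5 genes tested, 35 had a median above 0. The direction of 38 families turned when some 1 library was left out and that of 22 did not. The count of families above 0 ran from 26 (control replicate 2 left out) to 37 (control replicate 3 left out). Granzymes and perforin, GBP and IRG GTPases, the IFIT group, MHC genes, chemokine ligands, stefins, ribosomal proteins and proteasome subunits were among those that kept a median above 0, and Zfp proteins, cadherins, ABC transporters and solute carriers among those that kept it below.

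The spread within groups was itself unequal. The SD of log2(FPKM + 1) was larger among control than among PD-1 libraries for 7741 genes (57.2%), with medians of 0.19 and 0.17. Complement genes were more variable in control for 11 of 11, with a median SD of 0.84 against 0.30, and CD antigens for 45 of 54, with 0.46 against 0.21. C1qa, a chain of the C1q recognition molecule made by macrophages, stood at 444, 268 and 843 FPKM in control and at 495, 504 and 342 FPKM in PD-1, so that control held both the lowest and the highest value. Macrophage markers summed to 669, 272 and 955 FPKM in control and 558, 641 and 524 FPKM in PD-1, in the same order of libraries within control. Lyz2, which made up most of this sum, kept that order, as did Adgre1 and Csf1r. Cd68, also in the sum, did not, with control 1 the lowest control library. In PD-1 3, where C1qa and the sum were the lowest of the PD-1 libraries, Cd68 was the highest. The part of macrophages in these spreads was not tested. Cytosolic ribosomal proteins went the other way, with a larger SD in control for only 24 of 87, and stefins for 0 of 6.

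**Figure D5:**
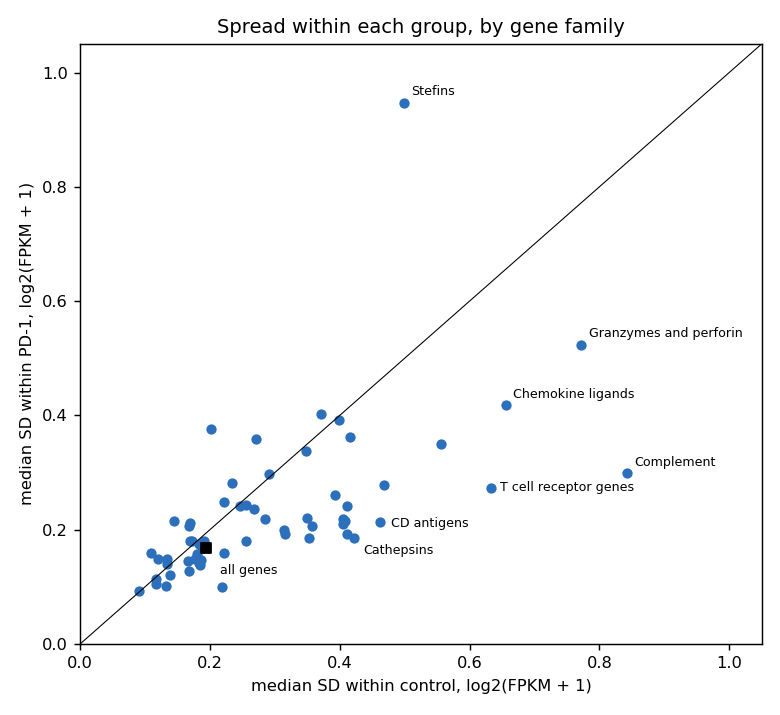
Median within-group SD of log2(FPKM + 1) in control (x) and in PD-1 (y) for each gene family (points) and all genes tested (square), with the line of equal spread. Complement genes (0.84 in control, 0.30 in PD-1) lie far below the line and stefins (0.50 and 0.95) far above it.

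By mean of at least 5 FPKM, the genes whose spread differed most between the groups were Ltf, Mcpt4, Tpsab1, Tpsb2 and Mcpt2 on the control side and Adnp, Wdr38, Mob1a, Nek7 and S100a8 on the PD-1 side. Ltf, the iron-binding lactotransferrin of milk and neutrophils, stood at 1.12, 0.877 and 80.7 FPKM in control and at 1.87, 0.883 and 4.66 FPKM in PD-1, the excess being in control 3 alone. Adnp, a chromatin regulator of neural development, stood at 20.2, 18.9 and 15.7 FPKM against 0.0569, 17.8 and 15.2 FPKM. In PD-1 1, where Adnp was nearly absent, the same-strand gene model Gm20716 that overlaps it stood at 19.3 FPKM, and it was at 0 in all control libraries. Nek7, a mitotic kinase that also serves the NLRP3 inflammasome, stood at 6.01, 5.29 and 5.60 FPKM against 3.21, 27.6 and 28.2 FPKM, and PD-1 1 was far below the other PD-1 libraries. Mob1a, a Hippo pathway adaptor, stood at 28.9, 30.5 and 28.3 FPKM against 27.7, 30.2 and 3.04 FPKM. Reads of Adnp and Gm20716 cannot be told apart where the genes overlap.

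Leaving out a library brought 1 gene past the adjusted threshold in each of 3 cases. Without control replicate 1, Emp1, an epithelial membrane protein, was called higher with a log2 fold change of 2.82 (SE 0.24, Benjamini-Hochberg adjusted p = 0.0396 in limma), and its values were 105, 19.6 and 11.7 FPKM in control and 103, 117 and 120.2 FPKM in PD-1. Without PD-1 replicate 1, Trim25, a ubiquitin ligase that activates the RNA sensor RIG-I, was called lower with -1.72 (SE 0.14, Benjamini-Hochberg adjusted p = 0.0211 in limma), from 16.5, 15.6 and 16.4 FPKM against 17.1, 4.87 and 3.65 FPKM. Without PD-1 replicate 3, H2-Bl, a nonclassical MHC class I gene with close relatives, was called higher with 2.01 (SE 0.15, Benjamini-Hochberg adjusted p = 0.0123 in limma), from 1.34, 1.73 and 1.76 FPKM against 9.25, 9.68 and 1.16 FPKM. In each case 1 library of a group held the level of the other group.

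Presence and absence separated few genes. There were 65 genes above 0 in all PD-1 libraries and listed at 0 in all control libraries, and 51 the other way round. Their median levels, over the libraries that held them, were 0.104 and 0.132 FPKM, and 2 genes in each direction had a mean of 1 FPKM or more. Those were the pseudogene Gm21451, at 1.47, 2.41 and 2.14 FPKM in PD-1, and the gene model Gm7030 of the MHC region, and, in control, the gene model Gm25193 and the microRNA precursor Mir7054.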

How the data were processed

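RNA was measured in 9 libraries of 3 groups, of which the 3 PD-1 and 3 control libraries were compared. Per the labels' protocols, total RNA was depleted of ribosomal RNA and libraries were made with a stranded total RNA kit. DESeq2, Bowtie2 and CASAVA 1.8 appear in the submitters' processing notes beside the build mm9, without their roles. What counted the reads, with which annotation and strand setting, is not given in the sources used here. Each value the authors deposited was read as FPKM (fragments scaled by transcript length and library size), a unit inferred from the values because the file does not name it. Sums per library ran from 348764 to 370214 FPKM. Low values fall on steps that point to between 16420000 and 17340000 units per library (fragments or, if mates were counted, reads), but only 34.0% to 36.9% of values of single-transcript genes lay within 0.02 of a whole step, so whole reads were not recovered and no count test was run. Of the 52550 identifiers, 52403 (99.7%) matched GENCODE M21 (GRCm38), from which symbols, classes and positions were taken. Positions of genes are on GRCm38, a later build than the one in the notes.

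The filter asked for 1 FPKM in 3 or more of the 6 libraries and left 13530 genes. A model of log2(FPKM + 1) was fitted by limma 3.58.1 (R 4.3.3) with 3 groups, all 9 libraries, no covariate and trended, robust moderation. Fold changes are on this scale, on which low genes appear to differ by less than they do, and p-values were adjusted by Benjamini-Hochberg over all genes kept. The fit was tested on simulated data. The 62 gene families were defined by symbol patterns and have no test. The patterns were corrected after the symbols they caught had been read, taking out unrelated genes and adding the HSP90 genes to the chaperones. The members and lists were chosen with earlier results of these data known. Named genes were the 12 in each direction with the smallest unadjusted p among annotated genes other than pseudogenes and small RNAs, with a mean of 1 FPKM or more and groups that do not overlap, then the most abundant members and those with the smallest p in each family described, the most abundant genes above 0 in 1 group alone and the genes with the largest difference in spread. Some others, among them Klrd1, Gzmb, Gzmc, Gbp4, Irgm1, Cd8a, Foxp3, Zfp703, Mapk14, Rps6kb1, Snora41 and the genes called when a library was left out, were chosen after their values were seen. Promoter windows came from RefSeq (GRCm38.p6) and were aligned with biopython 1.88. Alternatives were quantile normalization, no filter, a filter of 5 FPKM, a pseudocount of 0.1, the 6 libraries alone, a block for the replicate number and fits that each left 1 library out. A further alternative, chosen after the data were seen, put Ifi47 in the GTPase list.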

Additional observations from a re-analysis of the deposited data

How the results depend on the processing

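No gene was called at an adjusted p under 0.05 in limma under quantile normalization, no filter, a filter of 5 FPKM, a pseudocount of 0.1 or with the 6 libraries alone (smallest adjusted p between 0.0672 and 0.305). Leaving out each library in turn gave 0 to 1 called genes and 305 to 445 genes at an unadjusted p under 0.05, against 327 in all libraries. That count was 733 with no filter on low values and 176 with the filter of 5 FPKM, and the count of genes with groups that do not overlap was 1506 and 504, against 904. The number of genes tested differs between these settings (26060 and 8111). With the replicate number as a block, 0 genes were called and 363 had an unadjusted p under 0.05. Deviations of libraries with the same number correlated at 0.164, -0.0004 and 0.034, and those with different numbers at -0.178 to 0.155. With 3 libraries in each group, these values cannot decide whether the numbers pair the libraries. Families with a median above 0 numbered 35, and 26 to 37 when a library was left out. Median r within groups minus that between groups was -0.003, and -0.008 to 0.004 when a library was left out. Depth is known only through the steps in the low values, so no counting intervals are given.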

Other observations

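The second principal component of the 6 libraries (23.7% of the variance) set control 2 and PD-1 3, at 24.9 and 19.1, apart from the other 4 libraries, which lay between -16.4 and -5.90. Cx3cl1, the membrane-bound chemokine fractalkine, led it at 52.5, 4.61 and 82.8 FPKM in control and 56.8, 58.8 and 9.08 FPKM in PD-1, low in the same 2 libraries. Cav1, the coat protein of caveolae, was on the opposite side. It stood at 2.25, 10.1 and 4.17 FPKM in control and 3.55, 3.57 and 28.2 FPKM in PD-1. The stromelysin Mmp10, on that side too, stood at 8.06, 60.8 and 21.8 FPKM against 33.1, 19.2 and 33.1 FPKM. Gzmg and Gzmf were also among its leaders, Gzmg at 28.2, 83.5 and 26.1 FPKM against 143, 61.1 and 181 FPKM. Of families with at least 5 genes tested, granzymes and perforin had the largest mean loading on this component. The third component was led by Exosc6, a subunit of the RNA exosome, at 0.233, 33.5 and 0.449 FPKM in control and 4.79, 29.9 and 0.119 FPKM in PD-1, a split of the libraries that follows neither group.

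Proliferation and differentiation genes among the leaders of the first component also ran across the groups. Foxm1, a factor of mitotic gene expression, stood at 6.23, 7.20 and 1.21 FPKM in control and 5.27, 9.96 and 0.938 FPKM in PD-1, low in replicate 3 of both. The imprinted noncoding RNA H19 stood at 49.7, 5.79 and 2.22 FPKM in control and 14.2, 15.4 and 3.04 FPKM in PD-1, and the matrix protein gene Npnt at 64.8, 22.2 and 9.67 FPKM against 13.1, 46.9 and 7.38 FPKM. These genes were chosen by their loadings after their values were seen, and no test was made.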
